A study of Mus musculus with 12 samples.

Results

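Endothelial cells line blood and lymphatic vessels, and 32 genes that are known to mark them were followed here across MC38 tumours. All 32 genes, chosen by symbol as endothelial identity genes, were among the 18609 genes listed in the files. Of these, 29 are genes of blood endothelium or of endothelium in general and 3 (Lyve1, Flt4 and Prox1) are genes of lymphatic endothelium. MC38 is a mouse colon cancer line from the C57BL/6 strain. The tumours grew in wild-type C57BL/6 mice or in C57BL/6 mice with a TLR4 knockout, and TLR4 is the receptor for the lipopolysaccharide of Gram-negative bacteria. Hosts were injected intravenously with PBS, the vehicle, or with Salmonella, and tumour tissue was taken after 1 day. The 4 groups (wild type with PBS, wild type with Salmonella, knockout with PBS, knockout with Salmonella) held 3 libraries each. In the titles these carry F-1, M-1 or M-2, the order in which values are listed. The labels give no age, dose or Salmonella strain, and they do not say which part of the gene was deleted or that the MC38 cells lacked it. They name the cell type as colon cancer cells, while the libraries are of whole tumour tissue that also holds host cells. Whether the 3 libraries of each group stem from 3 mice is not stated, and p-values therefore reflect variation among libraries that could be technical.

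Blood endothelium is held together by VE-cadherin and claudin junctions, and its growth and rest are set by VEGF, angiopoietin and TGF-beta receptors. SOXF and ETS transcription factors are known to switch on many of its genes. Lymphatic endothelium is specified by the transcription factor Prox1 and depends on VEGFR3, the product of Flt4. In a tumour, vessels supply the cancer cells and are the entry route for blood cells, and bacterial lipopolysaccharide is known to activate endothelium through TLR4.

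RNA levels were given as FPKM, fragments scaled for transcript length and for the library's total, so that levels can be compared between genes. The libraries held 30512361 to 38764632 fragments on listed genes, and 1 fragment on a transcript of 1 kilobase was worth 0.0258 to 0.0328 FPKM. Differences are given as log2(scaled FPKM + 0.5), on which 1 is a 2-fold change for a well expressed gene and which understates the change of genes near or below 0.5 FPKM. A gene was tested where 3 or more libraries reached 0.5 FPKM, which left 12164 genes, among them 31 of the 32 endothelial genes. A gene passed the test at a Benjamini-Hochberg adjusted p under 0.05 over all 12164 genes (limma). Tlr4 itself was at 2.48 to 2.58 FPKM in wild-type PBS libraries, 2.58 to 3.78 in wild-type Salmonella libraries, 1.59 to 3.15 in knockout PBS libraries and 1.72 to 1.96 in knockout Salmonella libraries. It was therefore not at 0 in any knockout library, the hosts overlapped under PBS, and the difference under Salmonella was -0.71 (adjusted p = 0.0501).

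Blood endothelial genes were higher after Salmonella in wild-type hosts. Of the 31 tested endothelial genes, 27 rose and 1 (Cd34) fell, while 18.6% of all tested genes rose and 17.0% fell. The median of the 31 log2 differences was 1.20, against -0.01 over all tested genes. Scaled values of the 2 groups did not overlap, with Salmonella higher, for 26 of the 31 genes, against 22.7% of all tested genes. Tek and Sox17 reached 0.5 FPKM in wild-type Salmonella libraries alone, so that passing the filter favoured a difference for them. Sox7 and Clec14a reached it in 4 and 5 libraries and would have failed without the wild-type Salmonella group, so the same holds for them. Over the 28 tested genes whose mean over all 12 libraries was at least 0.5 FPKM, 24 rose, 1 fell and the median was 1.21. That mean includes the wild-type Salmonella libraries, so this choice is not free of the difference either. Clec14a, for one, averaged 1.20 FPKM there and 0.232 to 0.483 FPKM in the other groups. In bulk tissue, a higher level can come from more endothelial cells or from more RNA of the gene per cell, and these cannot be told apart.

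The same genes were nearer to their PBS level after Salmonella in knockout hosts. None of the 31 genes passed the test there (limma), none passed with limma-voom on recovered fragments, and 16 had an unadjusted p under 0.05. Of all tested genes, 0.444% rose and 0.329% fell in knockout hosts. The median difference was 0.45, and 29 of the 31 differences were above 0. Scaled values did not overlap, with Salmonella higher, for 12 of the 31 genes, against 14.8% of all tested genes. The 2 smallest adjusted p were 0.0997 for Emcn and 0.0998 for Sox18.

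Set side by side under Salmonella, knockout hosts had lower levels than wild-type hosts. Of the 31 genes, 19 were lower and none was higher, while 5.65% of all tested genes were lower and 3.39% higher. Tek, Sox17 and Clec14a, which passed the filter through the wild-type Salmonella libraries, are among the 19. The median difference was -0.89, and scaled values did not overlap, with knockout lower, for 23 genes, against 12.9% of all tested genes. Of the 31, 16 were lower with limma-voom on recovered fragments. The count depended on single libraries: it was 1 (Sox18) without the wild-type Salmonella library F-1 and also 1 without M-1 of that group, without knockout Salmonella M-1 or without knockout Salmonella M-2. Sox18 passed in every alternative fit, and each of the other 18 calls was lost in at least 1 of them.

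Under PBS the hosts were not told apart by these genes. None of the 31 passed (limma and limma-voom), none had an unadjusted p under 0.05, and the median difference of knockout minus wild type was -0.11. Among all tested genes 0% were called in either direction, and 173 had an unadjusted p under 0.05. The test of the difference between the 2 Salmonella effects called none of the 31 genes (limma and limma-voom), although 30 of 31 estimates were below 0 and 19 had an unadjusted p under 0.05. Of all tested genes, 0% passed as higher and 0.0247% as lower in that test. The smallest adjusted p was 0.188, for Sox18, whose effect was lower by -1.13 (SE 0.24) in knockout hosts. Without the wild-type Salmonella library M-2, 13 of the 31 genes passed it. The comparisons share groups of libraries, so their results are not independent of each other.

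**Figure D1:**
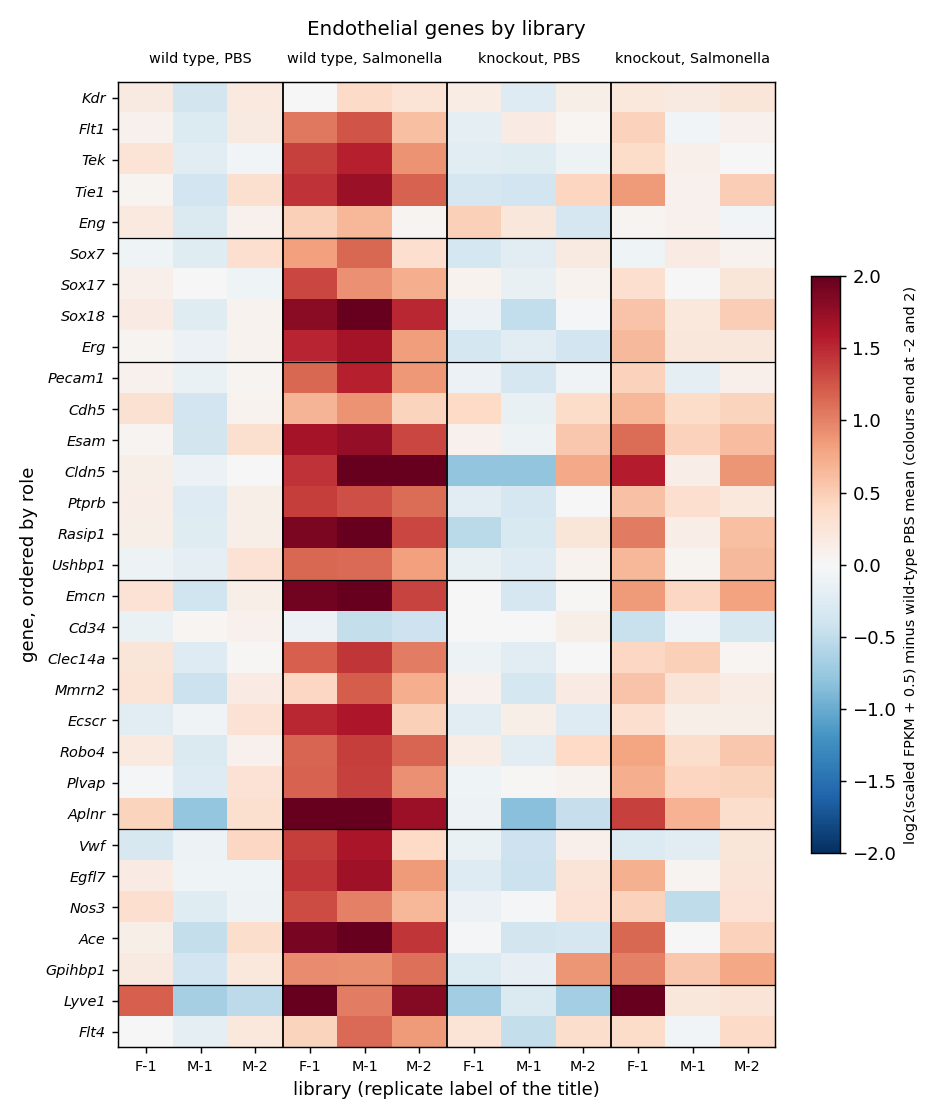
Each row is 1 of the 31 tested endothelial genes in order of role and each column 1 of the 12 libraries. Colour gives log2(scaled FPKM + 0.5) minus the wild-type PBS mean, and red fills most of the 3 wild-type Salmonella columns while the knockout Salmonella columns are paler and Kdr, Eng and Cd34 stay paler or blue.

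Level, not only change, differed between the genes. Cd34, a sialomucin of endothelium that fibroblasts and progenitor cells also carry, had the highest level of the 32 genes in every library, between 60.5 and 111 FPKM. In wild-type PBS tumours it was followed by Plvap (21.7 ± 4.35 FPKM, SD, n = 3), Cdh5 (14.8 ± 3.45), Eng (14.1 ± 2.41), Egfl7 (11.3 ± 1.17) and Pecam1 (11.2 ± 0.945). At the other end, Clec14a, Tek, Sox17 and Prox1 had means below 0.3 FPKM there. The wild-type PBS library M-1 was the lowest of its group for most of the genes, and 1 of the 29 blood endothelial genes was above the group mean in it.

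By library, the median difference of the 29 blood endothelial genes from the wild-type PBS mean was 1.34 in F-1, 1.44 in M-1 and 0.87 in M-2 of the wild-type Salmonella group. It was 0.59, 0.14 and 0.26 in the corresponding knockout Salmonella libraries, and between -0.25 and 0.12 in all 6 PBS libraries. The medians of the 2 Salmonella groups did not overlap. Within both, 1 library stood at some distance from the other 2, M-2 as the lowest in wild-type hosts and F-1 as the highest in knockout hosts.

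**Figure D2:**
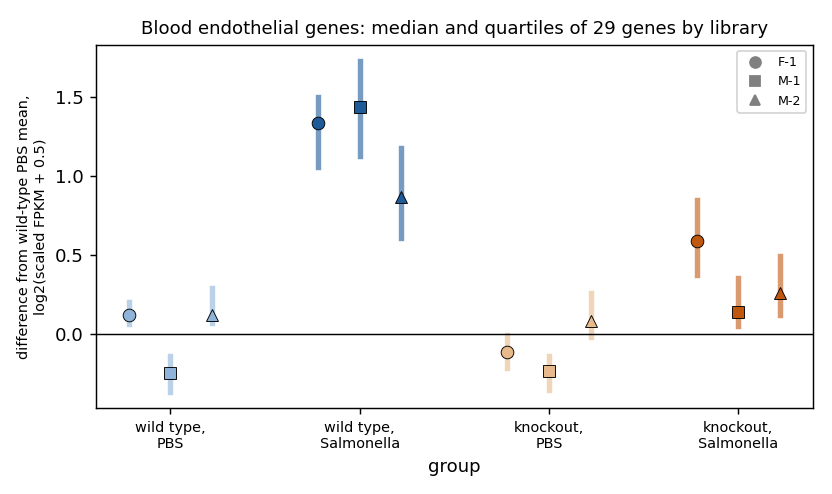
Points give the median over 29 blood endothelial genes of the difference from the wild-type PBS mean in each of the 12 libraries, on log2(scaled FPKM + 0.5), and bars reach from the lower to the upper quartile of the genes. The 3 wild-type Salmonella libraries lie at 0.87 to 1.44, the 3 knockout Salmonella libraries at 0.14 to 0.59 and the PBS libraries at -0.25 to 0.12.

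The transcription factors all rose in wild-type hosts, while 18.6% of all tested genes rose. Sox17 and Sox7 passed the filter only through the wild-type Salmonella libraries, which favoured a difference for them. Sox18, a SOXF factor of developing and activated vessels, was at 3.55, 2.58 and 3.33 FPKM in the wild-type PBS libraries and at 9.97, 11.5 and 9.75 FPKM in wild-type Salmonella libraries. Knockout libraries held 2.84, 2.07 and 3.03 FPKM under PBS and 4.67, 3.63 and 4.57 FPKM under Salmonella. Every wild-type Salmonella library thus stood above every other library, and in knockout hosts the Salmonella libraries also stood above the PBS libraries. The log2 difference was 1.76 (SE 0.17, adjusted p = 0.000154, limma) in wild-type hosts and 0.63 (SE 0.17, adjusted p = 0.0998) in knockout hosts. Knockout hosts were lower by -1.34 (SE 0.17, adjusted p = 0.00687) under Salmonella.

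The other 3 factors were less abundant. Erg, an ETS factor that keeps endothelial cells in their identity, was at 0.645 to 0.820 FPKM in wild-type PBS libraries and 1.73 to 2.88 in wild-type Salmonella libraries, a rise of 1.34 (SE 0.21, adjusted p = 0.00158). Knockout libraries held Erg at 0.451 to 0.571 FPKM under PBS and 0.941 to 1.41 under Salmonella, ranges that do not overlap, yet its adjusted p was 0.125. Sox17, the SOXF factor of arteries, rose by 1.00 (SE 0.19, adjusted p = 0.00352) from 0.144 to 0.234 FPKM under PBS to 0.642 to 1.04 FPKM under Salmonella. Sox7, the remaining SOXF gene, rose by 0.77 (SE 0.24, adjusted p = 0.0261), and its call was lost in 5 of the alternative fits. Knockout hosts under Salmonella were lower than wild-type hosts in Erg (-0.98, adjusted p = 0.0222) and Sox17 (-0.80, adjusted p = 0.0285), and Sox7 did not pass (-0.71, adjusted p = 0.0729).

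The receptors were divided. Kdr, the main VEGF receptor (VEGFR2), was at 2.28, 1.42 and 2.35 FPKM in wild-type PBS libraries and 1.60, 2.24 and 2.48 FPKM in wild-type Salmonella libraries. It was at 2.26, 1.57 and 2.17 FPKM in knockout PBS libraries and 2.27, 2.25 and 2.41 FPKM in knockout Salmonella libraries. All 4 groups covered much the same range. The wild-type difference was 0.21, with a 95% interval from -0.17 to 0.60 that leaves out the median rise of 1.20. Eng, a TGF-beta co-receptor of proliferating endothelium, went from 11.4 to 16.0 FPKM under PBS to 14.5 to 18.4 FPKM under Salmonella in wild-type hosts, with a difference of 0.40 and an interval from -0.06 to 0.85.

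The other 3 receptors rose in wild-type hosts, where 18.6% of all tested genes rose. Tie1, the partner of TIE2, was at 3.11, 2.19 and 3.89 FPKM in wild-type PBS libraries and 7.41, 9.13 and 7.38 FPKM in wild-type Salmonella libraries. Its knockout levels were 2.28, 2.19 and 4.16 FPKM under PBS and 5.57, 3.15 and 4.40 FPKM under Salmonella. The wild-type groups were apart, and the knockout groups overlapped. Tie1 rose by 1.45 (SE 0.26, adjusted p = 0.00337) in wild-type hosts and was lower by -0.98 (SE 0.26, adjusted p = 0.0442) in knockout hosts under Salmonella. The call between hosts was lost in 10 of the alternative fits. Tek, which encodes the angiopoietin receptor TIE2, was low throughout, at 0.321, 0.0808 and 0.159 FPKM in wild-type PBS libraries and 1.05, 1.27 and 0.776 FPKM in wild-type Salmonella libraries. Its difference was 1.27 (SE 0.21, adjusted p = 0.00188), and it stayed at or below 0.370 FPKM in every knockout library. Tek passed the filter through the wild-type Salmonella libraries alone, which favoured a difference. Flt1, the VEGF receptor that acts largely as a decoy, rose by 0.97 (SE 0.20, adjusted p = 0.00519), from 1.08 to 1.68 FPKM under PBS to 2.40 to 3.35 FPKM under Salmonella. Under Salmonella, Tek (-1.11, adjusted p = 0.0159) and Flt1 (-0.81, adjusted p = 0.0333) were lower in knockout hosts.

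Ratios within a library do not depend on any scaling between libraries. The ratio of Tie1 to Kdr was 1.37 to 1.66 in wild-type PBS libraries, 2.98 to 4.62 in wild-type Salmonella libraries, 1.01 to 1.91 in knockout PBS libraries and 1.40 to 2.45 in knockout Salmonella libraries. The balance of these receptors thus differed between the wild-type groups with no overlap, and it overlapped between the knockout groups. The ratio of Flt1 to Kdr was 0.668 to 0.758 and 0.969 to 1.78 in the wild-type groups, again with no overlap, and 0.518 to 1.05 and 0.580 to 0.901 in the knockout groups, where the mean was not higher after Salmonella. These pairs were chosen after their values were seen and were given no test.

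**Figure D3:**
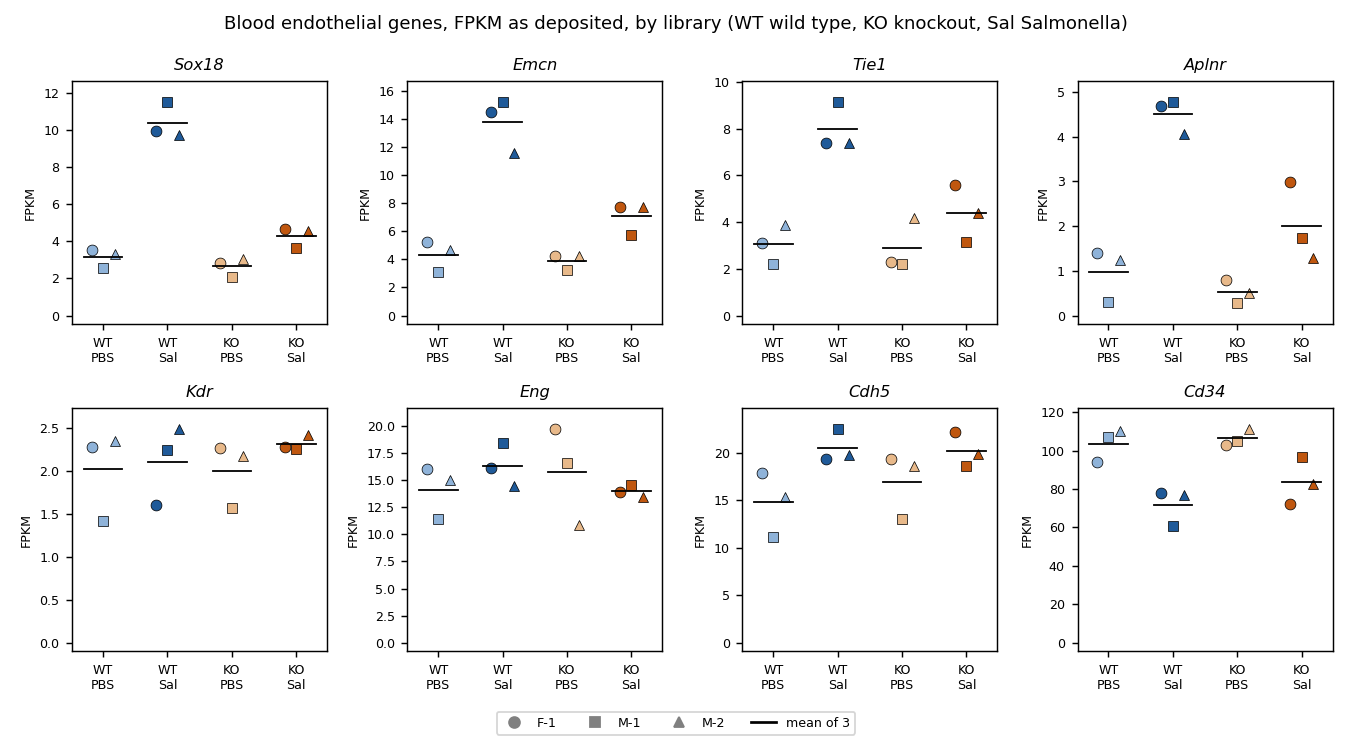
FPKM as deposited is shown for 8 blood endothelial genes, 1 point per library and a line at the mean of 3, in the 4 groups. Sox18, Emcn, Tie1 and Aplnr (top) stand highest in wild-type Salmonella libraries, whereas Kdr and Eng (bottom) overlap between all groups, Cdh5 is in nearly the same range in both Salmonella groups and Cd34 is lower after Salmonella in both hosts.

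Promoter sequences are shown for receptors that rose with Salmonella in wild-type hosts (Tie1, Tek), for one that did not pass (Kdr), and for Emcn, the surface gene with the smallest adjusted p. Each run covers 250 bases before to 50 bases after the annotated start, 300 in all, written 5′ to 3′ on the strand of the gene, from RefSeq on GRCm38.p6. Capitals mark GGAAG or its reverse complement CTTCC, a short core recognised by ETS factors such as the product of Erg.
Tie1, chr4:118489800-118490099, reverse strand: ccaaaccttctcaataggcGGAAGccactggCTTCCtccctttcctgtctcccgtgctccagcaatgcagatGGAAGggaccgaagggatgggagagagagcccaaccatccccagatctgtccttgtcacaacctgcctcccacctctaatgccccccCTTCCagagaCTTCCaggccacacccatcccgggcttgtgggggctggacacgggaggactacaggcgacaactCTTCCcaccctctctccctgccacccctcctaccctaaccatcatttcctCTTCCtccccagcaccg
Tek, chr4:94739039-94739338, forward strand: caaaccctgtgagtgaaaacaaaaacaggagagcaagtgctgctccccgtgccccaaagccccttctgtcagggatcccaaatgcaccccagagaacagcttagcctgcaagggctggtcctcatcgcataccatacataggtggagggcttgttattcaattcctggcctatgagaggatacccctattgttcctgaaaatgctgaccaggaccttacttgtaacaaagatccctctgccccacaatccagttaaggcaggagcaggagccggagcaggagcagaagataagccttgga
Kdr, chr5:75978406-75978705, reverse strand: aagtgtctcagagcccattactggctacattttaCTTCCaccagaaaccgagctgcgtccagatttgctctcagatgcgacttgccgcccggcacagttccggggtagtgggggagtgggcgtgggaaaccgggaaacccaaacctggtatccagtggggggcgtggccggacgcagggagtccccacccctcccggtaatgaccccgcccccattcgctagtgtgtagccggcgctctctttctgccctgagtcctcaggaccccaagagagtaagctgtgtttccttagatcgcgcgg
Emcn, chr3:137340828-137341127, forward strand: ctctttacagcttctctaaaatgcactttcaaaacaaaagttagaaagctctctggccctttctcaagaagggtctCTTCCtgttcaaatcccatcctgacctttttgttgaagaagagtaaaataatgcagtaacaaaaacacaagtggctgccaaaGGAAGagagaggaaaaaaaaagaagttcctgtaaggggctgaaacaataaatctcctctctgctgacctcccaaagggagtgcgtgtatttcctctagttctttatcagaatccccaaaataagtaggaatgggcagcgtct

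The core was present 7 times in the Tie1 promoter, 2 times in Emcn, 1 time in Kdr and 0 times in Tek. RefSeq promoters were matched for 17 of the 32 genes, with 23 promoters in all, and 18 of the 23 (78.3%) held the core, against 71.4% of all 32851 promoters of that length in the table. AACAAT or ATTGTT, a core of SOX factors, was found in 4 of 23 (17.4%), against 10.7% of all, and AGATAAG or CTTATCT, a core of GATA factors, in 2 of 23 (8.70%), against 3.04%. The Tek run holds 1 SOX and 1 GATA match, and the Emcn run 1 SOX match. None of the 3 cores contains another. Motifs and genes were chosen with the expression values known, and a match is a description of letters in this window only.

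All 7 genes of junctions and their regulators rose in wild-type hosts, against 18.6% of all tested genes. Cldn5, the tight junction claudin of endothelium, was at 2.11, 1.74 and 1.94 FPKM in wild-type PBS libraries and 5.02, 8.91 and 10.3 FPKM in wild-type Salmonella libraries, a rise of 1.94 (SE 0.45, adjusted p = 0.0102). Tumours of knockout hosts held 0.896, 0.901 and 3.59 FPKM under PBS and 6.45, 2.13 and 3.97 FPKM under Salmonella. The knockout groups overlapped, and the SE of Cldn5 was the largest of the junction genes, with a difference of 1.13 (SE 0.45, adjusted p = 0.209). Rasip1, a Ras-interacting protein needed for vessel lumens, rose by 1.74 (SE 0.26, adjusted p = 0.00131), from 1.04 to 1.49 FPKM to 4.12 to 5.62 FPKM. Esam, an adhesion molecule of endothelial junctions that platelets also carry, rose by 1.58 (SE 0.22, adjusted p = 0.00112), from 2.85 to 4.93 FPKM to 10.4 to 11.7 FPKM. Ptprb, the phosphatase that acts on VE-cadherin and TIE2, rose by 1.27 (SE 0.17, adjusted p = 0.000865), and Ushbp1 rose by 1.03 (SE 0.21, adjusted p = 0.00463).

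The 2 most abundant junction genes differed from each other. Pecam1 encodes CD31, which platelets and leukocytes carry too. It was at 11.8, 10.1 and 11.7 FPKM in wild-type PBS libraries and 20.8, 27.7 and 20.7 FPKM in wild-type Salmonella libraries (1.19, SE 0.18, adjusted p = 0.00142). The levels in knockout tumours were 10.2, 8.77 and 10.4 FPKM under PBS and 14.9, 9.53 and 11.9 FPKM under Salmonella. Only the wild-type pair of groups was apart. Cdh5, which encodes VE-cadherin, was at 17.9, 11.1 and 15.4 FPKM under PBS and 19.4, 22.5 and 19.8 FPKM under Salmonella in wild-type hosts, a rise of 0.67 (SE 0.19, adjusted p = 0.0202) whose call was lost in 3 of the alternative fits. Knockout libraries held 19.4, 13.0 and 18.6 FPKM under PBS and 22.2, 18.6 and 19.9 FPKM under Salmonella, so both Salmonella groups covered nearly the same range. The difference between hosts under Salmonella was -0.18 for Cdh5, with a 95% interval from -0.60 to 0.24, and -1.07 (SE 0.18, adjusted p = 0.0140) for Pecam1.

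Set against Cdh5 in the same library, 3 endothelial genes stood highest in wild-type Salmonella tumours and 3 did not. The ratio of Sox18 to Cdh5 was 0.493 to 0.515 there, 0.198 to 0.233 in wild-type PBS libraries, 0.147 to 0.163 in knockout PBS libraries and 0.196 to 0.230 in knockout Salmonella libraries. Emcn to Cdh5 was 0.588 to 0.746 in wild-type Salmonella libraries and at most 0.390 in any other library. Pecam1 to Cdh5 was 1.05 to 1.23 in wild-type Salmonella libraries and 0.513 to 0.911 elsewhere. For these 3 ratios the wild-type Salmonella libraries lay above all 9 others. Kdr to Cdh5 was lower instead, at 0.127 to 0.152 in wild-type PBS and 0.0827 to 0.125 in wild-type Salmonella libraries, and so was Eng to Cdh5, at 0.893 to 1.03 and 0.732 to 0.832. Gpihbp1 to Cdh5 overlapped, at 0.400 to 0.485 and 0.455 to 0.716. All 6 pairs were chosen after their values were seen and were given no test.

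Of 8 genes of surface glycoproteins, guidance receptors and the matrix protein Mmrn2, 7 rose and 1 (Cd34) fell in wild-type hosts. Of all tested genes, 18.6% rose and 17.0% fell there. Emcn, a sialomucin of veins and capillaries, was at 5.27, 3.08 and 4.65 FPKM in wild-type PBS libraries and 14.5, 15.2 and 11.6 FPKM in wild-type Salmonella libraries. Its knockout levels were 4.22, 3.26 and 4.26 FPKM under PBS and 7.75, 5.73 and 7.76 FPKM under Salmonella. The groups were apart in both hosts, with a rise of 1.77 (SE 0.21, adjusted p = 0.000604) in wild-type hosts and a difference of 0.80 (SE 0.21, adjusted p = 0.0997) in knockout hosts. Aplnr, the apelin receptor, had the largest difference of the 31 genes in wild-type hosts, 2.0 (SE 0.34, adjusted p = 0.00254), from 0.311 to 1.39 FPKM to 4.06 to 4.77 FPKM. Tumours of knockout hosts held 0.797, 0.277 and 0.50 FPKM under PBS and 2.98, 1.73 and 1.29 FPKM under Salmonella, which did not overlap (1.27, SE 0.34, adjusted p = 0.102). Emcn was lower in knockout than wild-type hosts under Salmonella (-1.07, SE 0.21, adjusted p = 0.0180), and Aplnr was lower by -1.20 (SE 0.34, adjusted p = 0.0488), a call lost in 14 of the alternative fits.

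Plvap forms the diaphragms of endothelial fenestrae and caveolae. It rose by 1.16 (SE 0.15, adjusted p = 0.000697) in wild-type hosts, from 17.9 to 26.4 FPKM to 40.3 to 45.9 FPKM, and stood at 20.2 to 22.2 FPKM under PBS and 28.4 to 34.3 FPKM under Salmonella in knockout hosts. Robo4, a guidance receptor that stabilises vessels, rose by 1.24 (SE 0.18, adjusted p = 0.00124), the C-type lectin gene Clec14a by 1.22 (SE 0.19, adjusted p = 0.00144) and Ecscr by 1.20 (SE 0.26, adjusted p = 0.00659). Clec14a would have failed the filter without the wild-type Salmonella libraries, which favoured a difference. Mmrn2, a matrix protein that binds the Clec14a product, rose by 0.78 (SE 0.24, adjusted p = 0.0246), and that call was lost in 4 of the alternative fits. Plvap, Robo4, Clec14a and Ecscr were lower in knockout hosts under Salmonella, by -0.62 to -1.01, and Mmrn2 did not pass (-0.46, adjusted p = 0.209). These host calls were lost in 11 of the alternative fits for Robo4 and for Ecscr, and in 5 for Plvap and for Clec14a.

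Cd34 went the other way. It was at 93.9, 107 and 110 FPKM in wild-type PBS libraries and 78.0, 60.5 and 77.1 FPKM in wild-type Salmonella libraries. The levels in knockout tumours were 103, 105 and 111 FPKM under PBS and 72.3, 96.7 and 82.4 FPKM under Salmonella. Deposited levels were lower after Salmonella in both hosts with no overlap, but after scaling the wild-type groups overlapped. The wild-type difference was -0.34 (SE 0.12, adjusted p = 0.0483), a call lost in 14 of the alternative fits, and the knockout difference was -0.32 (SE 0.12, adjusted p = 0.193).

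All 5 genes of the next group, secreted proteins, enzymes and the lipase carrier Gpihbp1, rose in wild-type hosts, against 18.6% of all tested genes. Ace, the angiotensin-converting enzyme, which activated macrophages can also make, was at 2.07, 1.20 and 2.57 FPKM in wild-type PBS libraries and 6.89, 8.61 and 5.87 FPKM in wild-type Salmonella libraries (1.84, SE 0.30, adjusted p = 0.00226). Knockout libraries held 1.82, 1.34 and 1.35 FPKM under PBS and 4.60, 1.83 and 2.77 FPKM under Salmonella (0.78, SE 0.30, adjusted p = 0.198). The knockout library F-1 was the highest of its Salmonella group and reached none of the wild-type Salmonella values. Egfl7, a secreted protein that guides vessel tubes, rose by 1.33 (SE 0.24, adjusted p = 0.00365), from 10.6 to 12.7 FPKM to 20.7 to 30.9 FPKM. Nos3, the endothelial nitric oxide synthase, rose by 0.99 (SE 0.26, adjusted p = 0.0146), and the difference between hosts under Salmonella did not pass (-0.91, adjusted p = 0.0504).

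In knockout hosts after Salmonella, Vwf was near its PBS level, while Gpihbp1 overlapped both its knockout PBS and its wild-type Salmonella values. Vwf, the clotting factor stored by endothelium and platelets, was at 0.841, 1.07 and 1.76 FPKM in wild-type PBS libraries and 3.21, 3.90 and 1.72 FPKM in wild-type Salmonella libraries, so that 1 library overlapped (1.14, SE 0.30, adjusted p = 0.0147). It showed a difference of 0.06 (SE 0.30) in knockout hosts and was lower there than in wild-type hosts under Salmonella (-1.23, SE 0.30, adjusted p = 0.0323). That host call was lost in 9 of the alternative fits, limma-voom among them (adjusted p = 0.0642). Gpihbp1, which carries lipoprotein lipase to the capillary lumen, was at 7.16, 4.71 and 7.48 FPKM in wild-type PBS libraries and 10.3, 10.2 and 14.2 FPKM in wild-type Salmonella libraries (0.99, SE 0.28, adjusted p = 0.0197). Knockout Salmonella values of Gpihbp1 were 12.7, 9.22 and 11.1 FPKM, a range that overlaps that of the wild-type Salmonella libraries. They also overlapped the knockout PBS values of 5.13, 5.65 and 11.9 FPKM. The Salmonella difference of Gpihbp1 in knockout hosts, 0.62 (SE 0.28, adjusted p = 0.253, limma), did not pass. The host difference under Salmonella was -0.22 for Gpihbp1, with a 95% interval from -0.83 to 0.39. The wild-type calls of Vwf, Nos3 and Gpihbp1 were lost in 4, 3 and 3 of the alternative fits.

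**Figure D4:**
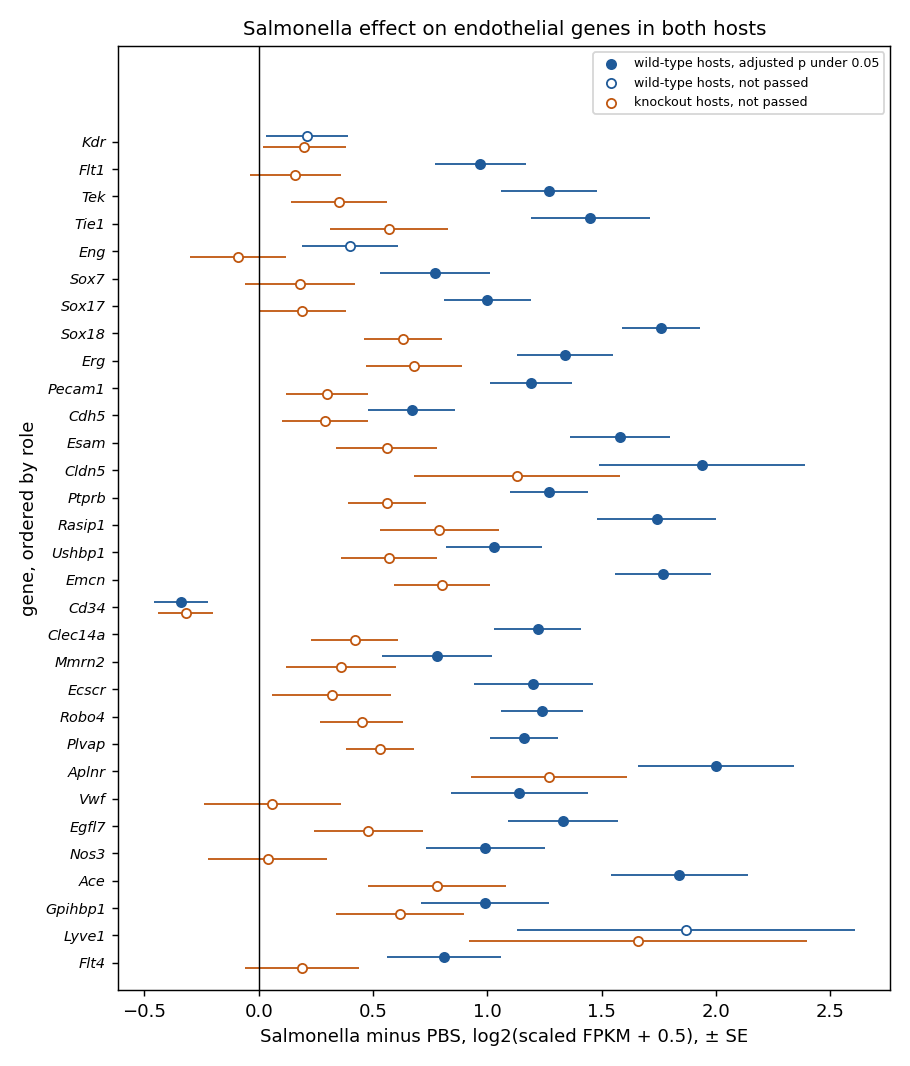
Points give Salmonella minus PBS on log2(scaled FPKM + 0.5) with SE for the 31 tested genes in wild-type and knockout hosts, filled where the adjusted p was under 0.05. In wild-type hosts 28 points are filled, 1 of them (Cd34) below 0, and in knockout hosts none is filled although 29 lie above 0.

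The lymphatic genes were low and did not move as one. Flt4, which angiogenic blood vessels can also express, was at 0.522, 0.398 and 0.706 FPKM in wild-type PBS libraries and 0.746, 1.47 and 1.39 FPKM in wild-type Salmonella libraries. Its knockout levels were 0.75, 0.236 and 0.813 FPKM under PBS and 0.801, 0.490 and 0.852 FPKM under Salmonella. Flt4 rose in wild-type hosts (0.81, SE 0.25, adjusted p = 0.0267), a call lost in 3 of the alternative fits, and the knockout groups overlapped (0.19, SE 0.25, adjusted p = 0.710).

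Lyve1 encodes a hyaluronan receptor of lymphatic endothelium and of some tissue macrophages. It was at 2.03, 0.182 and 0.258 FPKM in wild-type PBS libraries, 5.71, 1.43 and 3.47 FPKM in wild-type Salmonella libraries, 0.174, 0.399 and 0.179 FPKM in knockout PBS libraries and 7.32, 0.772 and 0.809 FPKM in knockout Salmonella libraries. Its highest value was in knockout Salmonella F-1, and its SE was the largest of the 31 genes. Neither host passed, with 1.87 (SE 0.74, adjusted p = 0.0730) in wild-type and 1.66 (SE 0.74, adjusted p = 0.260) in knockout hosts. The macrophage genes Mrc1 and Folr2 were also highest in F-1 among the knockout Salmonella libraries, at 11.4 against 4.06 and 2.97 FPKM for Mrc1 and at 18.5 against 6.59 and 6.46 FPKM for Folr2. Over all 9 tested macrophage genes, the median Salmonella difference was -0.25 in wild-type and -0.31 in knockout hosts, so Mrc1 and Folr2 do not stand for the list. Any part of macrophages in the Lyve1 values was not tested.

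Prox1 lay below the filter and was not tested with the others. It had 0, 1 and 1 fragments in wild-type PBS libraries, 12, 9 and 7 in wild-type Salmonella libraries, 0, 0 and 0 in knockout PBS libraries and 0, 2 and 1 in knockout Salmonella libraries. Summed over a group, 28 fragments stood against 2 in wild-type hosts, a ratio of 15.4 per fragment sequenced with an exact 95% interval from 3.90 to 134, which covers counting error only. All levels were at or below 0.0417 FPKM. Without the filter on low values Prox1 passed in wild-type hosts (0.10, SE 0.02, adjusted p = 0.0131, limma). It passed as lower in knockout hosts under Salmonella (-0.09, SE 0.02, adjusted p = 0.0421). It did not pass for Salmonella in knockout hosts (0.01, SE 0.02, adjusted p = 0.925). Levels so far below the added 0.5 FPKM leave differences near 0 on this scale, so these p-values say little about the size of the change.

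Of 15 other lymphatic genes, 11 passed the filter and 4 (Mmrn1, Reln, Sema3d and Tbx1) did not. Mmrn1, a matrix glycoprotein of lymphatic endothelium and platelets, had 0, 8 and 1 fragments in wild-type PBS libraries and 33, 27 and 26 in wild-type Salmonella libraries, against 16, 5 and 2 in knockout Salmonella libraries. Reln, a secreted protein of lymphatic vessels and other cells, had none in wild-type PBS libraries and 12, 33 and 3 in wild-type Salmonella libraries, against 7, 1 and 2 in knockout Salmonella libraries. Sema3d, a semaphorin gene, had the other order between hosts. It had 28, 12 and 50 fragments in wild-type and 81, 69 and 49 in knockout Salmonella libraries. Under PBS it had 26, 2 and 4 fragments in wild-type and 7, 14 and 15 in knockout libraries. The wild-type groups of Sema3d thus overlapped, and the knockout groups were apart. Tbx1, a T-box factor gene, had 22, 24 and 26 fragments in wild-type PBS and 5, 21 and 3 in wild-type Salmonella libraries, against 26, 45 and 22 in knockout Salmonella libraries. The 4 genes thus had no common order. Pdpn, the podoplanin gene that fibroblasts also express, was abundant and rose by 1.18 (SE 0.26, adjusted p = 0.00735), from 22.9 to 24.3 FPKM to 35.0 to 59.2 FPKM. Of the 11 tested, 4 rose and 1 fell in wild-type hosts with a median of 0.71, and 1 was lower in knockout hosts under Salmonella. The shares over all tested genes were 18.6%, 17.0% and 5.65%.

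**Figure D5:**
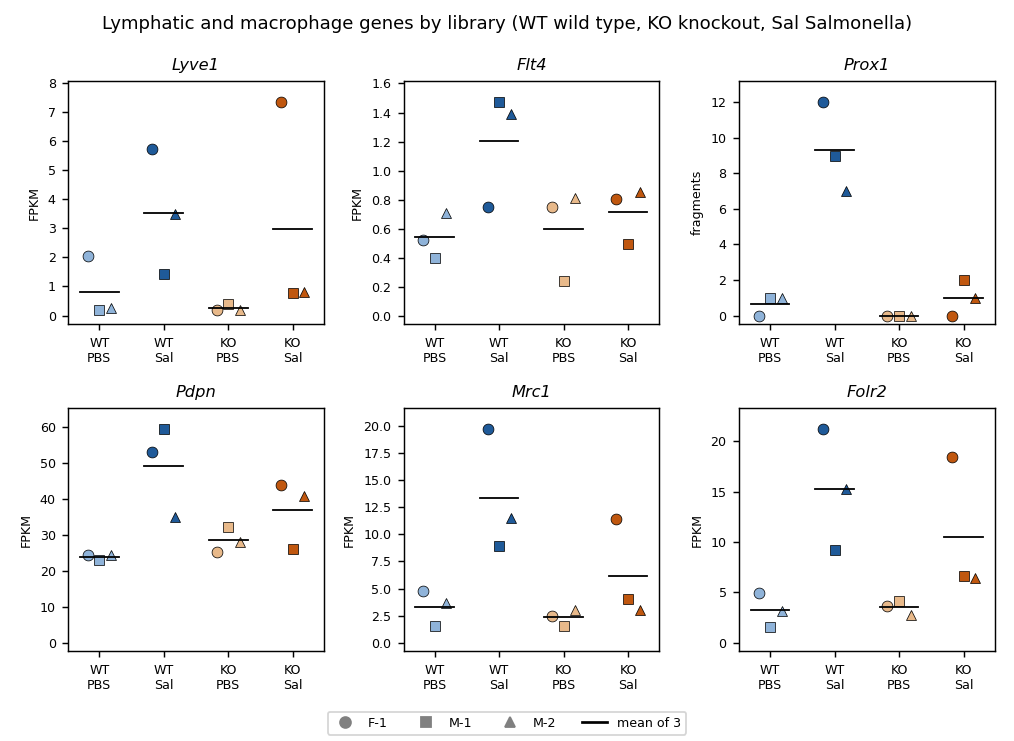
Lyve1, Flt4, Pdpn and the macrophage genes Mrc1 and Folr2 are shown in FPKM as deposited and Prox1 in fragments, 1 point per library with a line at the mean of 3. Lyve1, Mrc1 and Folr2 are highest in library F-1 of each Salmonella group, whereas the Prox1 fragments lie in the 3 wild-type Salmonella libraries, with 12, 9 and 7, and at 0 to 2 elsewhere.

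Further endothelial genes were read from lists by function. Over all tested genes, 18.6% rose and 17.0% fell in wild-type hosts, and 5.65% were lower in knockout hosts under Salmonella. Of 25 tested pan-endothelial genes outside the 32, 16 rose and 1 fell in wild-type hosts (median 0.88), none passed in knockout hosts (none with limma-voom, 8 with an unadjusted p under 0.05), and 9 were lower in knockout than wild-type hosts under Salmonella. The adhesion receptor gene Adgrl4 rose by 1.45 (SE 0.19, adjusted p = 0.000861), from 1.07 to 1.76 FPKM to 4.00 to 4.61 FPKM, and stood at 1.80 to 2.37 FPKM in knockout Salmonella libraries. Afap1l1 rose by 1.38 (SE 0.17, adjusted p = 0.000697).

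Arterial and venous genes split within their lists, and of all tested genes 18.6% rose and 17.0% fell in wild-type hosts. Of 9 arterial genes 4 rose and 1 fell (median 0.74). Gja5, the connexin 40 gene, is among the 4 but reached 0.5 FPKM in wild-type Salmonella libraries alone, with 0.964 to 1.74 FPKM there, 0.118 to 0.330 in wild-type PBS, 0.0573 to 0.198 in knockout PBS and 0.331 to 0.361 in knockout Salmonella libraries. The chemokine gene Cxcl12, which stromal cells also make, rose by 2.19 (SE 0.37, adjusted p = 0.00300). Of 5 venous genes 2 rose and 2 fell, with a median of -0.02. Selp, the P-selectin of activated endothelium and platelets, went from 0.0538 to 0.345 FPKM to 3.11 to 19.7 FPKM (4.04, SE 0.60, adjusted p = 0.00183, and 0.0593 with limma-voom). Selp stayed below 0.5 FPKM in every PBS library and was at 0.345 to 1.38 FPKM in knockout Salmonella libraries. It would thus have failed the filter without the wild-type Salmonella libraries, so that passing the filter favoured a difference for Selp too. Nr2f2, the vein-fate factor COUP-TFII that stromal cells share, fell by 0.47 (SE 0.10, adjusted p = 0.00658). Under Salmonella, Cxcl12 was lower in knockout hosts (-1.64, adjusted p = 0.0297), and so was Selp (-3.26, adjusted p = 0.0179), whose call was lost with limma-voom (adjusted p = 0.0966).

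Activation genes rose in 8 of 10 cases in wild-type hosts, against 18.6% of all tested genes, with a median of 1.51. Under Salmonella, 4 of the 10 were lower in knockout hosts (1 with limma-voom), against 5.65% of all tested genes. Lcn2, an acute-phase gene that neutrophils also carry, went from 0.434 to 1.57 FPKM to 416 to 2314 FPKM and was the only activation gene that passed in knockout hosts (6.24, SE 0.75, adjusted p = 0.00996), a call lost with limma-voom (adjusted p = 0.185). Thbd, the thrombomodulin gene, rose by 2.67 (SE 0.41, adjusted p = 0.00178). Of 12 tip cell and sprouting genes 5 rose and 2 fell (median 0.49), against 18.6% and 17.0% of all tested genes. The 2 that fell were Apln, the ligand of the apelin receptor, by 1.02 (SE 0.14, adjusted p = 0.000865) from 25.6 to 32.1 FPKM to 8.96 to 14.3 FPKM, and the netrin receptor gene Unc5b by 0.85 (SE 0.17, adjusted p = 0.00491).

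Ligands of the endothelial receptors gave no common direction. Of 12 tested ligand genes 3 rose and 3 fell, with a median of -0.07, while 18.6% of all tested genes rose and 17.0% fell. Apln fell where its receptor gene Aplnr rose. Angptl4, counted in this list although it is an inhibitor of lipoprotein lipase, rose by 2.55 (SE 0.27, adjusted p = 0.000426). Of 7 flow and shear genes 3 rose and 1 fell, and their median was 0.06 with scaled and -0.13 with deposited FPKM. Klf4, a flow-induced factor also made by other cells, fell by 1.24 (SE 0.18, adjusted p = 0.00124), and the cytochrome gene Cyp1b1 rose by 3.15 (SE 0.41, adjusted p = 0.000949).

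Markers of other cells moved beside the endothelial genes, and their part in these results was not tested. The summed level of 10 neutrophil genes was 9.57 to 20.4 FPKM in wild-type PBS, 2765 to 18775 in wild-type Salmonella, 4.85 to 10.8 in knockout PBS and 529 to 949 in knockout Salmonella libraries. That of 10 platelet genes was 9.89 to 10.9, 125 to 149, 7.87 to 11.9 and 27.7 to 40.5 FPKM in the same order. Most of it was Pf4 (122 to 142 FPKM in wild-type Salmonella libraries), and the 7 platelet genes Gp9, Gp1bb, Gp1ba, Gp6, Treml1, Clec1b and Tubb1 stayed below 0.5 FPKM in every library. All 5 tested red cell genes rose in wild-type hosts (median 2.41, 4 with limma-voom), against 18.6% of all tested genes. None passed in knockout hosts (none with limma-voom, 1 with an unadjusted p under 0.05). All 5 were lower in knockout than wild-type hosts under Salmonella (median -2.88), but only 2 with limma-voom, against 5.65% of all tested genes with limma. Under PBS their median host difference was already -1.39, with all 5 below 0. None passed there, and 3 had an unadjusted p under 0.05.

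The sums of fibroblast, adipocyte, skeletal muscle, and mast cell and progenitor genes were higher in wild-type Salmonella than in wild-type PBS libraries. They overlapped between the knockout groups. The fibroblast sum was 969 to 1205 FPKM in wild-type PBS and 1495 to 2002 in wild-type Salmonella libraries, and 835 to 1204 and 863 to 1142 in the knockout groups. Adipocyte genes stood at 19.1 to 29.6, 80.5 to 190, 12.1 to 21.5 and 20.4 to 121 FPKM, skeletal muscle genes at 4.80 to 9.91, 49.0 to 104, 4.16 to 15.0 and 6.19 to 132 FPKM, and mast cell and progenitor genes at 4.44 to 12.2, 27.8 to 109, 4.52 to 17.1 and 5.29 to 14.8 FPKM. These 3 lists thus also stood higher in wild-type Salmonella than in wild-type PBS libraries, with no overlap. The mast cell genes Ms4a2 and Gata1 were at 0 in at least 1 library, as were Myh4, Myh1, Myl1 and Pvalb of muscle and Adipoq, Plin1, Cidec, Lep, Cfd and Retn of fat.

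The sums of macrophage, mural, mesothelial and skin genes overlapped between the wild-type groups. Macrophage genes summed to 583 to 1040, 348 to 688, 548 to 1140 and 482 to 701 FPKM, and pericyte and smooth muscle genes, the mural cells that wrap vessels, to 43.8 to 45.9, 37.4 to 50, 37.5 to 40.5 and 28.9 to 43.0 FPKM. By gene, 3 of 9 tested mural genes rose and 2 fell in wild-type hosts (median 0.44), against 18.6% and 17.0% of all tested genes. The 2 that fell were Pdgfrb (-0.73, SE 0.14, adjusted p = 0.00441) and Cspg4 (-1.21, SE 0.24, adjusted p = 0.00437). Of 9 tested macrophage genes 3 rose and none fell there, with a median of -0.25, among them Folr2 (2.30, SE 0.47, adjusted p = 0.00625) and Mrc1 (2.07, SE 0.51, adjusted p = 0.0130). Mesothelial and skin genes summed to at most 2.65 and 4.82 FPKM in any library.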

How the data were processed

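RNA-seq of tumour tissue was analysed in 12 libraries, 3 in each of 4 groups taken from the labels. The authors deposited 1 table of FPKM per library. The unit was read from the values, since whole fragments could be recovered from the FPKM steps for 100.00% of 18609 genes within 0.01 fragments. Per the submitters' processing notes, fastp, HISAT2 and HTSeq were used, in versions not given in the sources used here, and the genome build is not given there either.

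FPKM were divided by trimmed-mean scaling factors (30% of ratios and 5% of levels trimmed), which lay between 0.997 and 1.048 except in F-1 (0.851) and M-1 (0.853) of the wild-type Salmonella group. Relative to scaled values, deposited FPKM shift the median gene by -0.183 in wild-type hosts, 0.154 between hosts under Salmonella and 0.157 in the difference of effects. Log2(scaled FPKM + 0.5) was fitted with limma 3.58.1 in R 4.3.3 (1 mean per group, 8 residual degrees of freedom, intensity trend, robust, two-sided), with Benjamini-Hochberg adjustment over the 12164 genes that reached 0.5 FPKM in 3 or more libraries. The fit was also run on simulated counts, with the same spread setting for every gene and changes in the wild-type Salmonella group alone. That run does not measure error rates in these data. Libraries of a group differed by more than counting noise (chi-square per gene 17.6 to 175). Intervals cover 95%. Alternatives were another scaling, deposited FPKM, pseudocounts of 0.1 and 1, no filter, limma-voom on recovered fragments, only the groups compared, the title label as a block, and leaving out each library. Counting strand is not stated, so antisense or overlapping genes cannot be told apart.

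The endothelial genes and all lists were chosen with earlier results of these data known. Named are all 32 genes and Tlr4, and other genes were taken from the 2 of each list with the smallest p for Salmonella in wild-type hosts. Beyond this rule, the ratios and the 4 untested lymphatic genes were chosen after their values were seen. Of the lists, Ackr1 was not analysed here, and 1 red cell gene is not reported here. Promoters were read from RefSeq by gene symbol.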

Additional observations from a re-analysis of the deposited data

Results flagged for a closer look

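The gene Pf4, a chemokine of platelets and megakaryocytes that macrophages can also make, had a Salmonella effect that differed between the hosts by the limma test of that difference, although not with limma-voom on recovered fragments (adjusted p = 0.0515). Its log2 effect was 3.92 in wild-type and 1.78 in knockout hosts, and the difference of the effects was -2.13 (adjusted p = 0.00875, limma), with all wild-type Salmonella libraries (122 to 142 FPKM) above all knockout Salmonella libraries (26.2 to 38.7 FPKM). Wild-type Salmonella M-2 differed more from F-1 and M-1 of its group (chi-square per gene 145 and 175) than those did from each other (56.7), and no test of single libraries was made in groups of 3.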

How the results depend on the processing

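None of the endothelial genes reversed a passed direction under any alternative. In wild-type hosts 28 passed as reported, 24 to 28 under the 8 alternatives other than leaving out a library, and 19 to 28 without 1 library, and 20 passed in every one. In knockout hosts the count of 0 became 1 with only the groups compared and 0 to 4 without 1 library. For knockout against wild-type hosts under Salmonella, the count of 19 became 12 with no filter on low values, 1 with only the groups compared and 1 to 20 without 1 library. For the difference of effects it was 0 to 13 without 1 library, 13 being reached without wild-type Salmonella M-2. Under PBS it was 0 in every alternative. With limma-voom the 5 counts were 28, 0, 16, 0 and 0.

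Counts over all genes moved more. In wild-type hosts 4330 genes became 2436 with only the groups compared and 2049 to 6220 without 1 library. In knockout hosts 94 became 37 with no filter, 23 with limma-voom, 188 with only the groups compared and 4 to 754 without 1 library. Between hosts under Salmonella 1099 became 577 with limma-voom, 12 with only the groups compared and 10 to 4595 without 1 library, and under PBS 0 became 1 with no filter. For the difference of effects 3 became 6 with deposited FPKM, 0 with limma-voom and 2 to 2237 without 1 library. The fit of only the groups compared has fewer libraries, and the cause of the other shifts was not tested.

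With the title labels as a replicate block, 28, 0, 19, 0 and 0 endothelial genes passed in the 5 comparisons, and 45 of all genes in knockout hosts. Deviations of libraries with the same label correlated by -0.33 to 0.40, with 7 of 18 over 0.1, so the labels were not taken to pair the libraries. Depth limits Prox1 and other genes with a few fragments, for which a lack of fragments is no sign of absence.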
